A study of Homo sapiens with 8 samples.

Results

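The serine synthesis and folate one-carbon enzymes were taken from a deposited RNA-seq table of HCT116 cells as the rows whose gene name is one of 10 listed symbols. The 10 genes were PHGDH, PSAT1 and PSPH of serine synthesis, SHMT1, SHMT2, MTHFD1, MTHFD2, MTHFD1L, MTHFD2L and ALDH1L2 of folate metabolism. Each symbol matched 1 row, so 10 of 58735 genes in the table were members. The rule uses function and no measured value, but the list was chosen with earlier results of these data known. Of the 10, 9 passed the filter on low values and entered the tests, and ALDH1L2 did not.

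Cells make serine from the glycolytic intermediate phosphoglycerate in a chain of reactions that PHGDH opens by oxidation, PSAT1 continues by transferring an amino group from glutamate, and PSPH ends by removing the phosphate. The hydroxymethyltransferases SHMT1 (cytosol) and SHMT2 (mitochondria) then split serine into glycine and a carbon unit carried on tetrahydrofolate. In mitochondria MTHFD2, or its relative MTHFD2L, oxidises that unit, and MTHFD1L then releases it as formate. The formate leaves for the cytosol, where MTHFD1 reattaches it to folate for purine and thymidylate synthesis. ALDH1L2 burns mitochondrial formyl-folate to carbon dioxide and yields NADPH. Many carcinoma cells, colorectal lines among them, express this mitochondrial route strongly, and several of its genes are known targets of the stress transcription factor ATF4 and of MYC.

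HCT116 is an established human colorectal carcinoma line of epithelial origin, and RNA from 8 libraries was sequenced in 4 groups of 2 libraries. The first group expressed a control shRNA, a short hairpin RNA with no stated target, and was held for 24 h in DMEM with 20 mM glucose. The second group expressed the same control shRNA and spent the 24 h at 0 mM glucose. The third and the fourth group expressed an shRNA against MAPKAPK2, numbered 1 and 2, and stayed at 20 mM glucose, with no culture time stated. MAPKAPK2 encodes the protein kinase MK2, which acts downstream of p38 in stress signalling. All 8 libraries therefore come from shRNA-expressing cells of 1 line, and no group combined a MAPKAPK2 shRNA with 0 mM glucose. The sources used here give neither the shRNA sequences nor whether the cells were clones or pools, or whether replicates were separate cultures. The p-values below measure only the spread between these libraries, which may be technical. In bulk RNA, fewer cells expressing a gene and less RNA per cell cannot be told apart.

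The libraries held between 14252316 and 19975449 reads in genes, and 13821 to 14611 genes reached 1 FPKM (fragments scaled by exon length and library size). MAPKAPK2 itself stood at 16.4 and 16.2 FPKM in controls at 20 mM and at 17.9 and 18.9 FPKM without glucose. It was at 2.77 and 2.54 with shRNA 1, a log2 fold change of -2.24 (limma adjusted p = 2.01e-04), and at 0.982 and 0.800 with shRNA 2, a log2 fold change of -3.20 (limma adjusted p = 5.26e-05). The means were 16.3% and 5.46% of control. The level with shRNA 2 was lower than with shRNA 1 by a further -0.95 (limma adjusted p = 0.00124). Adding 1 to each FPKM understates changes at such low levels, and limma voom on the recovered reads gave -2.61, -4.18 and -1.57 for these 3 comparisons. Of 6 epithelial markers, 5 reached 1 FPKM in every library and 1, VIL1, stayed under it, with summed levels of 1214 to 1772 FPKM. Group means moved with the shRNAs and with glucose. With shRNA 2 EPCAM was at 61.6%, KRT8 at 65.5%, KRT18 at 65.0%, CDH1 at 71.6% and KRT19 at 128.7% of the 20 mM control. With shRNA 1 CDH1 was at 191% and EPCAM at 120.2%. At 0 mM glucose KRT8 was at 120%, KRT18 at 126%, KRT19 at 112%, CDH1 at 111% and EPCAM at 86.0%. The summed epithelial levels at 0 mM, 1746 and 1772 FPKM, were above those of all other libraries. The 4 leukocyte, 3 endothelial and 2 hepatocyte markers were under 1 FPKM throughout. Of 4 fibroblast markers only COL1A1 reached 1 FPKM, with 3.84 to 6.72 FPKM, and DCN was listed at 0 in all 8 libraries. Nearly all of the summed fibroblast level was COL1A1. The sum was 5.76 to 6.76 FPKM in the 4 control libraries and 3.86 to 4.601 FPKM in the 4 knockdown libraries. The part of these shifts of epithelial markers and of COL1A1 in the results was not tested.

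The members spanned a wide range of mRNA levels per length of exon. MTHFD2 had the highest mean over the 8 libraries, 52.9 FPKM, and PSAT1 followed with 51.2 FPKM. These neighbours could not be ordered, since MTHFD2 was the higher of the pair in 4 of 8 libraries. SHMT2 averaged 36.5 FPKM, below PSAT1 in 7 of 8 libraries, and MTHFD1L averaged 28.6 FPKM, below SHMT2 in 8 of 8. These are the 3 mitochondrial enzymes of the route plus the aminotransferase, and a gap without overlap separated them from the rest. PSPH (15.4 FPKM), MTHFD1 (14.3 FPKM), PHGDH (9.19 FPKM) and SHMT1 (5.98 FPKM) formed the middle. PSPH was above MTHFD1 in 6 of 8 libraries and PHGDH above SHMT1 in 6 of 8. MTHFD2L (1.30 FPKM) and ALDH1L2 (0.261 FPKM) were the lowest, and neither overlapped the member above it. The order depends on the exon length by which the authors divided, which is 9217 bases over 34 annotated transcripts for PHGDH and 2188 bases over 2 transcripts for PSAT1.

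**Figure D1:**
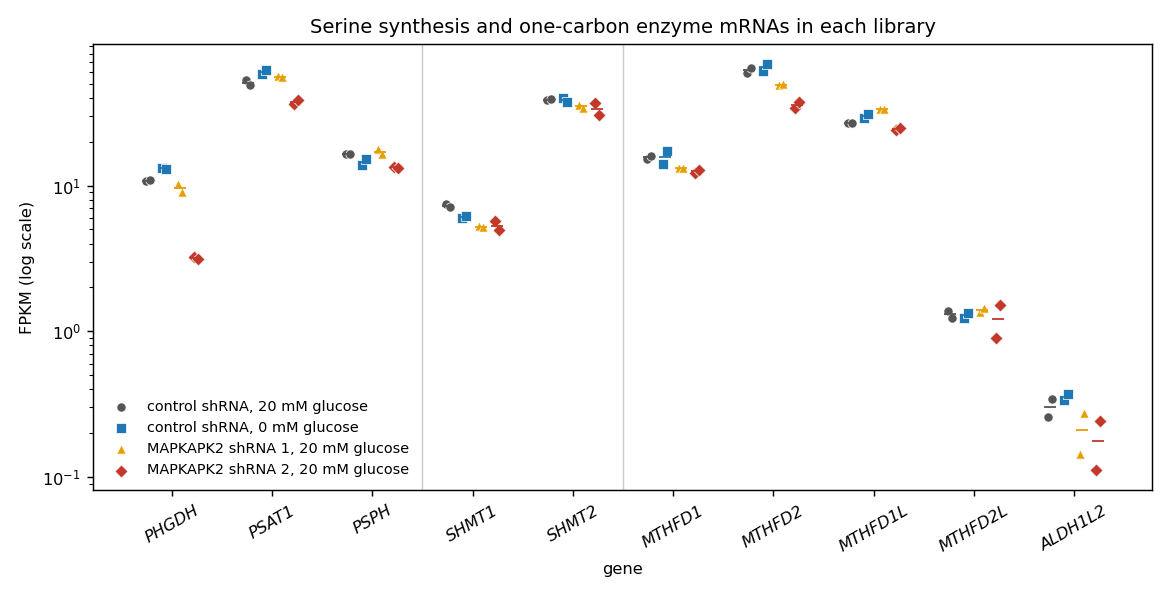
Level of each of the 10 mRNAs in each of the 8 libraries, as FPKM on a logarithmic axis, with 1 symbol per library coloured by group and a short line at each group mean. PHGDH with shRNA 2, at 3.24 and 3.14 FPKM, lies well below its other 6 libraries, and MTHFD2L and ALDH1L2 lie at the bottom.

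Calls among the members differed by comparison, and with glucose withdrawal and shRNA 1 their share was close to that of all tested genes. Glucose withdrawal gave no call, with shRNA 1 SHMT1 fell and MTHFD1L rose, and with shRNA 2 PHGDH, PSAT1, SHMT1 and MTHFD2 fell and none rose. A gene was called at a Benjamini-Hochberg adjusted p under 0.05 in a limma fit to log2(FPKM + 1) of all 16239 tested genes. For glucose 0 of 9 members were called, beside 0.0% of all tested genes. With shRNA 1 against control 2 of 9 were called, beside 19.8% of all genes, of which 9.35% rose and 10.5% fell. With shRNA 2 against control 4 of 9 were called, beside 18.8% of all genes. All 4 fell, in a comparison where 7.73% of all genes fell and 11.1% rose. Directly against shRNA 1, shRNA 2 gave 5 called members of 9, beside 22.2% of all genes. PHGDH, PSAT1, PSPH, MTHFD2 and MTHFD1L were lower with shRNA 2, where 9.13% of all genes were lower and 13.0% higher.

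The median log2 fold change over the 9 tested members was -0.15 with shRNA 1, beside -0.01 over all tested genes, with 4 members above 0 and 5 below. It was -0.30 with shRNA 2, beside 0.01 over all tested genes, and 9 of 9 members lay below 0 where 49.0% of all genes did. For shRNA 2 against shRNA 1 it was -0.34, beside 0.03 over all genes, with 8 of 9 members below 0 against 47.2% of all genes. Both shRNA comparisons use the same 2 control libraries, so their values are given side by side and are not independent. SHMT1 was the 1 of 9 members called in the same direction with both shRNAs, beside 7.08% of all tested genes.

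**Figure D2:**
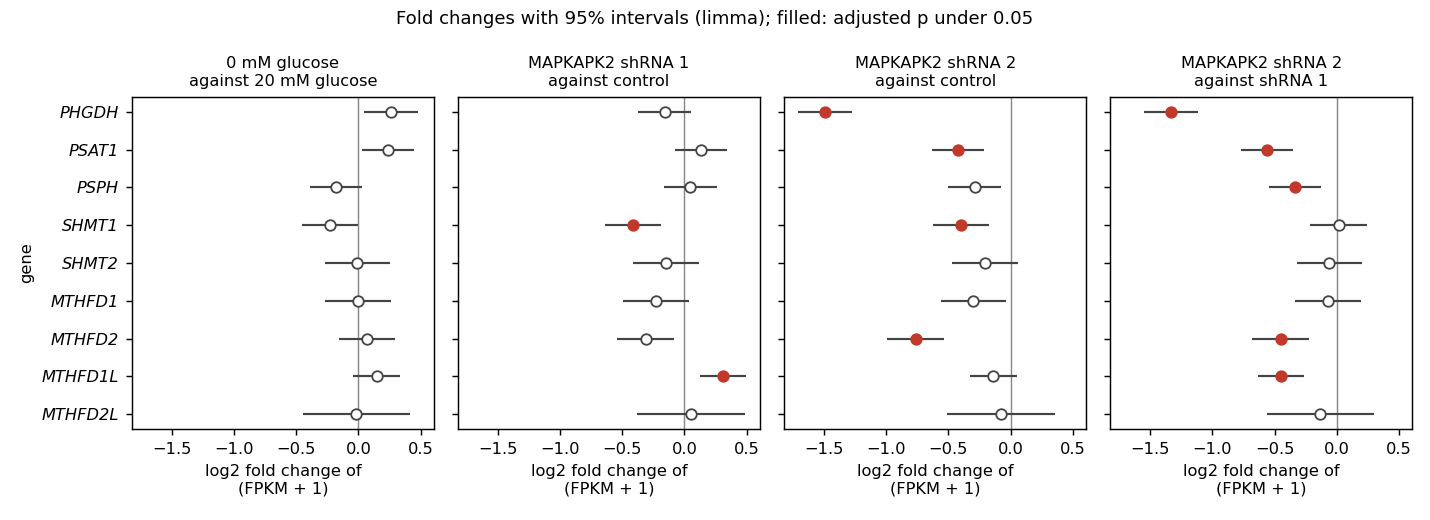
Log2 fold changes of FPKM + 1 for the 9 tested members in 4 comparisons, with 95% limma intervals as horizontal lines, and filled points where the adjusted p was under 0.05. No point is filled for glucose, 2 are for shRNA 1, 4 for shRNA 2 and 5 for shRNA 2 against shRNA 1, and PHGDH lies farthest to the left in both panels with shRNA 2.

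Sequence around the start sites was examined because several members were lower together with shRNA 2. RefSeq windows of 300 bases on GRCh38.p14, from 250 bases before to 50 after each start, matched 7 of the 10 members and gave 11 windows. ALDH1L2, PSPH and SHMT2 had no window. The CCAAT box, to which the factor NF-Y binds, was searched as CCAAT on both strands and lay in windows of 6 of the 7 members, all but MTHFD2L. Counted by window, 8 of the 11 held a match, beside 34.6% of 34943 such windows genome-wide. Of the windows of MTHFD1L, 3 overlap and share 1 match, and a further one, chr6:151006758-151007057, holds none. PSAT1 was the member with 3 matches, a number that 3.26% of all windows reach or exceed. The 30 bases around each match are shown for the 3 members with the lowest fold changes under shRNA 2, all on the plus strand, with the motif in capitals. Counted from the RefSeq start at 0, the match of PHGDH begins at -71, those of PSAT1 at -113, -83 and -52, and those of MTHFD2 at -184 and -74.
PHGDH, chr1:119711851-119711880: gagtatttccgtCCAATcaaaaggagactg
PSAT1, chr9:78297000-78297029: tcagaagcgcgaCCAATggggatgtgagct
PSAT1, chr9:78297030-78297059: ccttcgcgcgaaCCAATtagcgcagggcct
PSAT1, chr9:78297061-78297090: cgacagcacgggCCAATggggcgccgactc
MTHFD2, chr2:74198419-74198448: gctcttctggctCCAATcaaaagcagggct
MTHFD2, chr2:74198529-74198558: atgcggcagggaCCAATgggtggcggaggg

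Other motifs were searched on both strands in the same windows. The composite element of ATF4 and C/EBP factors, as TGATGNAA, lay in the 3 overlapping windows of MTHFD1L, 3 of 11, and in 3.62% of all windows. The E-box CACGTG, which MYC and other helix-loop-helix factors can bind, lay in 4 of the 11 windows and in 7.23% of all windows. The 4 were that of MTHFD1 and the 3 overlapping ones of MTHFD1L. The core of the antioxidant response element, as TGACNNNGC, lay in 2 of the 11 windows, of MTHFD2 and MTHFD2L, and in 13.3% of all windows. No match of these 4 motifs overlapped another in the members' windows, and the further window of MTHFD1L held none of them. MTHFD1L is shown because its mRNA was the 1 member called upward, with shRNA 1. Its E-box comes first and its ATF4 element second, both on the plus strand with the motif in capitals.
MTHFD1L, chr6:150866320-150866349: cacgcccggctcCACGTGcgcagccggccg
MTHFD1L, chr6:150866346-150866375: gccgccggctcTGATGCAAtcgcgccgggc
These matches describe letters in the windows and were not tested for binding. PHGDH, PSAT1 and MTHFD2 shared the CCAAT box and, of the 4 motifs, no other. The box was not particular to them. It also lay in windows of SHMT1, which fell too, and of MTHFD1 and MTHFD1L, which were not called with shRNA 2.

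**Figure D3:**
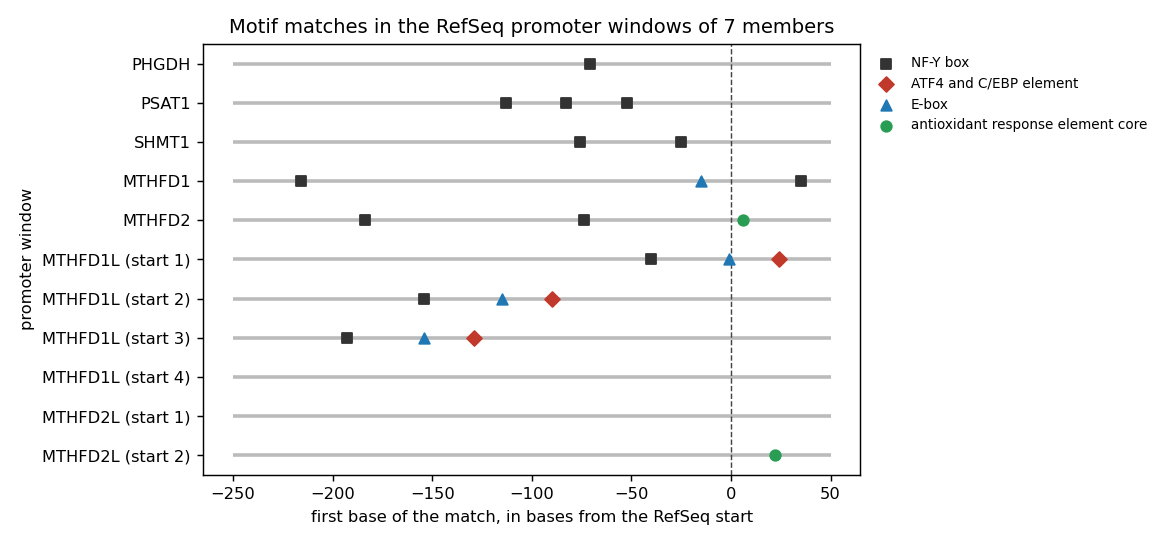
Position of each motif match in 11 RefSeq promoter windows of 7 members, in bases from the start at 0, with a grey bar for each window and the CCAAT box labelled as the NF-Y box. PSAT1 carries 3 such boxes, and the ATF4 and C/EBP element appears in the 3 overlapping windows of MTHFD1L but not in its further one.

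Glucose withdrawal left all 9 tested members uncalled. The question here is whether 24 h without glucose, the source of the carbon for serine synthesis, moved the mRNAs of the enzymes. PHGDH stood at 13.3 and 13.1 FPKM at 0 mM beside 10.8 and 10.8 at 20 mM, without overlap, a log2 fold change of 0.26 ± 0.09 (SE, limma adjusted p = 0.508). PSAT1 was at 58.2 and 62.3 FPKM beside 52.9 and 48.9, a log2 fold change of 0.24 ± 0.09 (limma adjusted p = 0.528). For SHMT1 the values were 5.97 and 6.19 FPKM beside 7.44 and 7.15, a log2 fold change of -0.23 ± 0.10 (limma adjusted p = 0.571). These 3 members had an unadjusted p under 0.05 and their groups did not overlap, and none passed after adjustment over all genes. The other 6 lay between -0.18 (PSPH) and 0.15 (MTHFD1L). The interval for MTHFD2 ran from -0.16 to 0.30 and that for SHMT2 from -0.27 to 0.26, so changes outside those bounds were not seen, while smaller ones were not resolved. The limma fit called 0 of 16239 genes in this comparison, with 1421 genes at an unadjusted p under 0.05 and a lowest adjusted p of 0.0863. limma voom on the recovered reads called 28 genes, 0 of them members.

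PHGDH, which opens serine synthesis, fell the most of the members with shRNA 2. The gene (ENSG00000092621) lies on the plus strand of GRCh38 at chr1:119648411-119744226. Its level was 10.8 and 10.8 FPKM in the 20 mM controls, 10.2 and 8.96 with shRNA 1, and 3.24 and 3.14 with shRNA 2. Both shRNA 2 libraries were therefore below all others, and the group mean of 3.19 ± 0.07 FPKM (SD, n = 2) was 29.5% of the control mean and 33.3% of the shRNA 1 mean. The log2 fold change was -1.495 ± 0.091 with shRNA 2 (SE, limma adjusted p = 2.70e-04) and -1.34 ± 0.09 for shRNA 2 against shRNA 1 (limma adjusted p = 4.43e-04). With shRNA 1 it was -0.16 (95% interval -0.38 to 0.06, limma adjusted p = 0.268), which does not show that shRNA 1 left PHGDH unmoved. Because 1 is added to each FPKM, this scale understates a fall to about 3 FPKM, and voom on the recovered reads gave -1.76 with shRNA 2. Between 466 and 2530 reads per library stand behind these levels.

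PSAT1 (ENSG00000135069, plus strand, chr9:78297143-78330093), the aminotransferase of the chain, also fell with shRNA 2 but by less. Its level was 52.9 and 48.9 FPKM in controls, 56.8 and 55.1 with shRNA 1 and 36.5 and 38.8 with shRNA 2. The 3 groups did not overlap, and shRNA 1 lay above the control where shRNA 2 lay below it. The log2 fold change was -0.43 ± 0.09 with shRNA 2 (limma adjusted p = 0.0184) and 0.13 ± 0.09 with shRNA 1 (limma adjusted p = 0.339). The direct difference between the shRNAs was -0.56 ± 0.09 (limma adjusted p = 0.00657). The call against control was lost when either 20 mM control library was left out (adjusted p up to 0.135), and the call against shRNA 1 without the first shRNA 1 library (adjusted p = 0.0529).

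PSPH (ENSG00000146733, minus strand, chr7:56011051-56051604) removes the phosphate that completes serine. Its level was 16.5 and 16.6 FPKM in controls, 17.8 and 16.4 with shRNA 1 and 13.5 and 13.2 with shRNA 2. Both shRNA 2 libraries were below the other 4 at 20 mM, while shRNA 1 straddled the control. At 0 mM glucose PSPH was at 13.8 and 15.2 FPKM, also below both 20 mM controls. The log2 fold change with shRNA 2 was -0.29 ± 0.09 and missed the threshold (limma adjusted p = 0.0679), and with shRNA 1 it was 0.05 (limma adjusted p = 0.763). Against shRNA 1 the level with shRNA 2 was lower by -0.34 ± 0.09 (limma adjusted p = 0.0388), a call that held in 3 of 13 alternative fits. Reads of PSPH could be shared with its pseudogene PSPHP1, which had 47 to 138 reads per library over 261 exon bases. PSPHP1 was at 10.8 and 13.8 FPKM in controls, 21.6 and 21.3 with shRNA 1 and 22.9 and 32.8 with shRNA 2. Its log2 fold change was 0.77 with shRNA 1 (limma adjusted p = 0.0743) and 1.11 with shRNA 2 (limma adjusted p = 0.0235). Both knockdown pairs of PSPHP1 thus lay above the 20 mM controls, while PSPH with shRNA 1 straddled them.

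The 3 steps of serine synthesis were thus all lower with shRNA 2 than with shRNA 1, and by unequal amounts. Summed over the 3 genes, the level was 80.2 and 76.3 FPKM in controls, 84.8 and 80.5 with shRNA 1 and 53.2 and 55.1 with shRNA 2. The ratio of PSAT1 to PHGDH was 4.904 and 4.516 in controls, 5.56 and 6.15 with shRNA 1, and 11.3 and 12.3 with shRNA 2. PHGDH mRNA was therefore reduced by a larger factor than PSAT1 mRNA in both shRNA 2 libraries. At 0 mM glucose the ratio was 4.39 and 4.76, within or next to the range of the controls.

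The cytosolic SHMT1 (ENSG00000176974, minus strand, chr17:18327860-18363563) was lower with both shRNAs. Its level was 7.44 and 7.15 FPKM in controls, 5.27 and 5.18 with shRNA 1 and 5.69 and 4.91 with shRNA 2. All 4 knockdown libraries were below both controls, and the shRNA 2 pair enclosed the shRNA 1 pair. It fell by 0.41 ± 0.10 on the log2 scale with shRNA 1 (limma adjusted p = 0.0266) and by 0.40 ± 0.10 with shRNA 2 (limma adjusted p = 0.0305). The difference between the shRNAs was 0.02 (95% interval -0.21 to 0.24, limma adjusted p = 0.927). The calls held in 8 and 5 of 13 alternative fits and were lost in both comparisons when either 20 mM control was left out, with adjusted p up to 0.146 and 0.162.

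Its mitochondrial counterpart SHMT2 (ENSG00000182199, plus strand, chr12:57229327-57234935), the main source of mitochondrial glycine and one-carbon units, was not called in any comparison. Its level was 38.5 and 39.1 FPKM in controls, 40.1 and 37.2 at 0 mM, 35.6 and 34.2 with shRNA 1 and 37.0 and 30.3 with shRNA 2. All 4 knockdown libraries lay below both 20 mM controls, but the shRNA 2 libraries differed from each other more than the groups did. The log2 fold change was -0.15 (95% interval -0.41 to 0.11, limma adjusted p = 0.395) with shRNA 1 and -0.21 (95% interval -0.47 to 0.06, limma adjusted p = 0.250) with shRNA 2. Without the first shRNA 2 library, SHMT2 was called (log2 fold change -0.35, adjusted p = 0.0449). The ratio of SHMT2 to SHMT1 was 5.18 and 5.47 in the 20 mM controls and 6.00 to 6.76 in the other 6 libraries, without overlap.

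MTHFD2 (ENSG00000065911, plus strand, chr2:74198562-74217565), the mitochondrial dehydrogenase that many tumours express and most adult tissues do not, fell with shRNA 2. Its level was 59.2 and 63.9 FPKM in controls, 48.7 and 49.95 with shRNA 1 and 34.2 and 37.5 with shRNA 2. The 3 groups did not overlap and stood in that order, with group means of 80.1% of control for shRNA 1 and 58.2% for shRNA 2. With shRNA 2 the log2 fold change was -0.76 ± 0.10 (limma adjusted p = 0.00316), a call that held in 13 of 13 alternative fits. With shRNA 1 it was -0.31 ± 0.10 and missed the threshold (limma adjusted p = 0.0634), although voom on the recovered reads called it (-0.32, adjusted p = 0.0453). The difference between the shRNAs was -0.45 ± 0.10 (limma adjusted p = 0.0182) and was lost without either shRNA 1 library, with adjusted p up to 0.103. Of MTHFD2's exon bases 33.2% overlap genes on the opposite strand, mainly SLC4A5, and no source used here says whether counting used strand. SLC4A5 itself was at 0.0987 to 0.318 FPKM.

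MTHFD1L (ENSG00000120254, plus strand, chr6:150865549-151101887) releases formate in mitochondria, and its mRNA rose with shRNA 1 and was lower with shRNA 2 than with shRNA 1. Its level was 26.8 and 26.9 FPKM in controls, 33.5 and 33.6 with shRNA 1 and 23.9 and 24.7 with shRNA 2. The 0 mM controls, at 28.9 and 30.9 FPKM, lay between the 20 mM controls and shRNA 1, and none of the 4 groups overlapped. MTHFD1L rose with shRNA 1 by 0.31 ± 0.08 on the log2 scale (limma adjusted p = 0.0366). With shRNA 2 the value was -0.14 ± 0.08 (limma adjusted p = 0.285), and the difference between the shRNAs was -0.45 ± 0.08 (limma adjusted p = 0.00952). The rise held in 7 of 13 alternative fits and was lost without any 1 of the 4 control libraries or either shRNA 1 library (adjusted p up to 0.172). The difference between the shRNAs was lost without either shRNA 1 library (adjusted p up to 0.0647).

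MTHFD1 (ENSG00000100714, plus strand, chr14:64388031-64463457), the cytosolic enzyme that combines 3 activities in 1 protein, was not called. Its level was 15.23 and 16.04 FPKM in controls, 14.01 and 17.32 at 0 mM, 13.3 and 13.1 with shRNA 1 and 12.3 and 12.8 with shRNA 2. All 4 knockdown libraries were below both controls, with log2 fold changes of -0.23 (95% interval -0.49 to 0.03, limma adjusted p = 0.199) and -0.30 (95% interval -0.56 to -0.04, limma adjusted p = 0.111). The ratio of MTHFD1L to MTHFD1 was 1.76 and 1.68 in the 20 mM controls, 2.52 and 2.56 with shRNA 1 and 1.95 and 1.93 with shRNA 2. At 0 mM glucose it was 2.06 and 1.78. It was thus higher in all 4 knockdown libraries and in both 0 mM controls than in both 20 mM controls. The ratio was highest with shRNA 1, and the first 0 mM control lay above both shRNA 2 libraries.

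The remaining mitochondrial enzymes were scarce. MTHFD2L (ENSG00000163738, plus strand, chr4:74114174-74303099), a relative of MTHFD2 found in adult tissues, was at 1.38 and 1.24 FPKM in controls, 1.24 and 1.33 at 0 mM, 1.35 and 1.44 with shRNA 1 and 0.903 and 1.51 with shRNA 2. The shRNA 2 libraries gave both the lowest and the highest of these values, and their 95% Poisson intervals, 0.772 to 1.05 and 1.33 to 1.72 FPKM, did not overlap. The group difference of -0.08 (95% interval -0.51 to 0.36, limma adjusted p = 0.812) was accordingly unresolved. MTHFD2 exceeded MTHFD2L by 24.8 to 51.7 times in every library.

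ALDH1L2 (ENSG00000136010, minus strand, chr12:105019784-105084577) was read at 18 to 59 reads per library and did not enter the fit. Its level was 0.260 and 0.343 FPKM in the 20 mM controls, 0.335 and 0.373 at 0 mM, 0.144 and 0.277 with shRNA 1 and 0.112 and 0.241 with shRNA 2. The first shRNA 1 and the first shRNA 2 library were the lowest. The shRNA 1 pair overlapped the 20 mM controls and the shRNA 2 pair did not. The Poisson interval of the first control, 0.183 to 0.358 FPKM, overlapped that of all 4 knockdown libraries except the first of shRNA 2, at 0.0662 to 0.177 FPKM. That of the second control, 0.256 to 0.450 FPKM, overlapped the second library of each shRNA. It overlapped neither the first of shRNA 1, at 0.0910 to 0.215 FPKM, nor the first of shRNA 2. These intervals cover counting error only.

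Summed by compartment, the mitochondrial members were 126 and 132 FPKM in the 20 mM controls, 132 and 138 at 0 mM, 119 and 119 with shRNA 1 and 96.1 and 94.2 with shRNA 2. The cytosolic pair of SHMT1 and MTHFD1 summed to 22.7 and 23.2 FPKM in the 20 mM controls, 20.0 and 23.5 at 0 mM, 18.5 and 18.3 with shRNA 1 and 17.9 and 17.7 with shRNA 2. Both sums were lower in all 4 knockdown libraries than in any control at 20 mM. The cytosolic sums of the shRNAs lay close together, while the mitochondrial sums with shRNA 2 lay well under those with shRNA 1. Within mitochondria, the ratio of MTHFD2 to SHMT2 was 1.54 and 1.64 in the 20 mM controls, 1.37 and 1.46 with shRNA 1, and 0.925 and 1.24 with shRNA 2.

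Genes that feed, use or regulate the pathway, or are relatives of such genes, were counted from 8 lists with 56 genes, of which 44 were tested. With glucose withdrawal 0 of 44 were called, and 5 had an unadjusted p under 0.05. With shRNA 1 12 of 44 were called, 5 upward and 7 downward, beside 19.8% of all genes. With shRNA 2 19 of 44 were called, 8 upward and 11 downward, beside 18.8% of all genes. Directly between the shRNAs 13 of 44 were called, 7 higher and 6 lower with shRNA 2, beside 22.2% of all genes. The medians over the 44 genes, -0.07, -0.07 and -0.13, stood beside -0.01, 0.01 and 0.03 over all tested genes. Called with both shRNAs in the same direction were 5 of 44, MYC and AHCYL2 upward and TYMS, SDSL and FOLR1 downward, beside 7.08% of all tested genes in comparisons that share their controls. The counts of related genes depended on single libraries. Without the first or the second 20 mM control 3 or 5 were called with shRNA 2, and 3 or 4 with shRNA 1. Without the first or the second shRNA 1 library 4 or 3 were called with shRNA 1, 12 in both cases with shRNA 2, and 7 or 6 between the shRNAs.

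**Figure D4:**
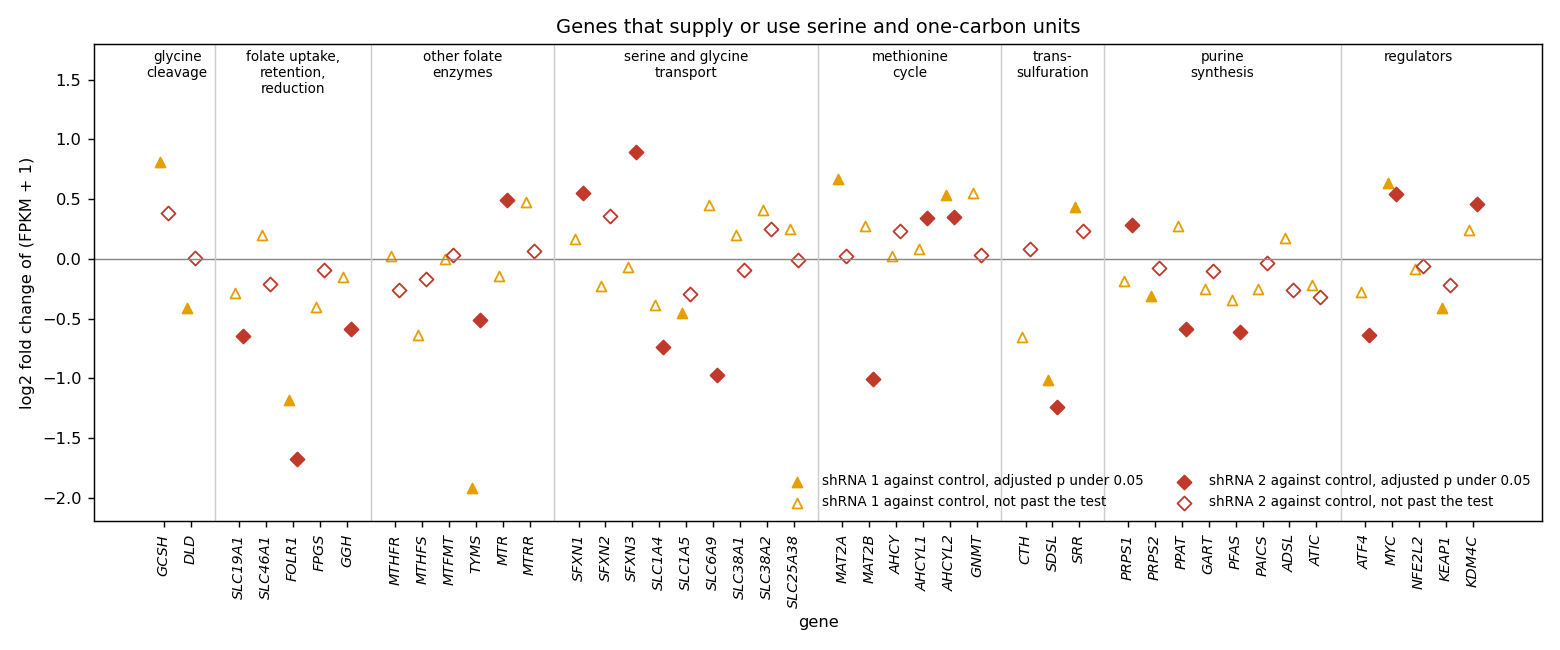
Log2 fold changes of FPKM + 1 for the 44 tested related genes in 8 functional lists, with triangles for shRNA 1 and diamonds for shRNA 2, each against control, filled where the adjusted p was under 0.05. The 5 tested genes under folate uptake, retention and reduction, none of them for reduction, lie below 0 with shRNA 2, 3 of them filled. The lowest symbol is TYMS with shRNA 1.

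Of 5 tested genes for folate uptake and retention, 3 fell with shRNA 2 and 0 rose, beside 7.73% of all genes that fell. For folate reduction the list held DHFR2, which was under 1 FPKM in every library and was not tested. Of the same 5, 1 fell with shRNA 1, beside 10.5% of all genes. FOLR1, a folate receptor, was at 3.19 and 2.86 FPKM in controls, 1.19 and 0.436 with shRNA 1 and 0.385 and 0.151 with shRNA 2, with log2 fold changes of -1.18 and -1.67 (limma adjusted p = 0.0142 and 0.00408). The group means were 26.9% and 8.84% of control, and the shRNA 2 libraries held 12 and 4 reads. The added 1 FPKM understates these falls, for which limma voom on the recovered reads gave -1.97 and -3.51 (adjusted p = 0.0056 and 0.00101). SLC19A1, the reduced folate carrier, was at 11.8 and 11.7 FPKM in controls, 10.6 and 8.45 with shRNA 1 and 7.37 and 6.98 with shRNA 2. It fell with shRNA 2 (-0.64, limma adjusted p = 0.0132) and had a value of -0.29 with shRNA 1 (limma adjusted p = 0.147). GGH, a hydrolase that trims the glutamate tail by which cells retain folate, was at 13.8 and 14.9 FPKM in controls, 14.4 and 11.4 with shRNA 1 and 8.75 and 9.72 with shRNA 2. It fell with shRNA 2 (-0.59, limma adjusted p = 0.0204) and had a value of -0.15 with shRNA 1 (limma adjusted p = 0.446).

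Among other enzymes that use folate, 1 of 6 tested genes rose and 1 fell with shRNA 2, beside 11.1% and 7.73% of all genes. With shRNA 1, 1 of the 6 fell, beside 10.5% of all genes. TYMS, which makes thymidylate with a folate-bound carbon and is known as a proliferation-linked gene, was at 27.96 and 26.32 FPKM in controls, 6.26 and 6.65 with shRNA 1 and 20.6 and 17.0 with shRNA 2. It fell with both shRNAs, by 1.92 and by 0.51 on the log2 scale, and was higher with shRNA 2 than with shRNA 1 by 1.40 (limma adjusted p = 5.87e-04), the reverse of the order in PHGDH. Of the exon bases of TYMS 46.6% overlap opposite-strand genes, mainly ENOSF1. ENOSF1 was at 6.02 to 7.35 FPKM over the 8 libraries, near the level of TYMS with shRNA 1. The part of this overlap in the TYMS values was not tested. MTR, methionine synthase, was at 5.53 and 5.16 FPKM in controls, 4.41 and 5.10 with shRNA 1 and 7.20 and 8.75 with shRNA 2, and rose with shRNA 2 (0.50, limma adjusted p = 0.0309). MTRR, its reactivating enzyme, had a value of 0.48 with shRNA 1 (limma adjusted p = 0.0507) and 0.06 with shRNA 2. On the recovered reads MTRR was called with shRNA 1 (0.53, limma voom adjusted p = 0.0149).

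Of 9 tested serine and glycine carriers, 2 rose and 2 fell with shRNA 2, beside 11.1% and 7.73% of all genes. With shRNA 1, 1 fell, beside 10.5% of all genes. SFXN1, the mitochondrial serine carrier, was at 23.5 and 25.1 FPKM in controls, 27.5 and 27.1 with shRNA 1 and 34.8 and 37.2 with shRNA 2, a log2 fold change of 0.55 with shRNA 2 (limma adjusted p = 0.00603). Its relative SFXN3 was at 12.6 and 11.6 FPKM in controls, 11.7 and 11.3 with shRNA 1 and 25.2 and 21.6 with shRNA 2, a log2 fold change of 0.90 with shRNA 2 (limma adjusted p = 0.00224). Both carriers rose in the same libraries in which PHGDH and MTHFD2 fell. SLC6A9, a plasma membrane glycine transporter, was at 2.23 and 2.27 FPKM in controls, 3.18 and 3.69 with shRNA 1 and 0.911 and 0.433 with shRNA 2. It fell with shRNA 2 (-0.97, limma adjusted p = 0.0115) and differed between the shRNAs by -1.42 (limma adjusted p = 0.00273). The shRNA 2 mean was 29.9% of control and 19.6% of shRNA 1, and limma voom on the recovered reads gave -1.79 and -2.39 (adjusted p = 8.79e-04 and 5.58e-05).

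In the glycine cleavage system 2 of 4 genes were tested, and GLDC and AMT were under 1 FPKM in every library. GCSH, its carrier protein, rose with shRNA 1, from 4.00 and 5.39 FPKM in controls to 9.24 and 8.57 (0.81, limma adjusted p = 0.0121), and was at 5.86 and 6.98 with shRNA 2. DLD, a dehydrogenase shared with other mitochondrial complexes, fell with shRNA 1, from 18.8 and 19.6 FPKM to 14.5 and 13.8 (-0.42, limma adjusted p = 0.0471). Over all tested genes 9.35% rose and 10.5% fell with shRNA 1. With shRNA 2 neither GCSH nor DLD passed the test.

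Of 6 tested genes listed under the methionine cycle, 2 rose with shRNA 1, MAT2A and AHCYL2, beside 9.35% of all genes. With shRNA 2, 2 rose, AHCYL1 and AHCYL2, and 1 fell, MAT2B, beside 11.1% and 7.73% of all genes. AHCYL1 and AHCYL2 are relatives of AHCY. AHCY itself was not called, at 0.02 with shRNA 1 (limma adjusted p = 0.901) and 0.23 with shRNA 2 (limma adjusted p = 0.16). The subunits of methionine adenosyltransferase moved separately. The catalytic MAT2A was at 74.0 and 70.6 FPKM in controls, 115 and 116 with shRNA 1 and 69.7 and 77.8 with shRNA 2, and rose with shRNA 1 (0.67, limma adjusted p = 0.00444). The regulatory MAT2B was at 13.74 and 13.99 FPKM in controls, 16.6 and 17.4 with shRNA 1 and 5.88 and 6.96 with shRNA 2, and fell with shRNA 2 (-1.01, limma adjusted p = 0.00124). AHCYL2 rose with both, by 0.54 and 0.35 (limma adjusted p = 0.0116 and 0.0474).

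Of 3 tested genes of transsulfuration and serine breakdown, 1 rose and 1 fell with shRNA 1, beside 9.35% and 10.5% of all genes. With shRNA 2, 1 of the 3 fell, beside 7.73% of all genes. SDSL, a serine dehydratase-like enzyme, fell with both. Its level was 17.94 and 14.96 FPKM in controls, 8.60 and 6.67 with shRNA 1 and 8.03 and 5.02 with shRNA 2, with log2 fold changes of -1.02 and -1.24 (limma adjusted p = 0.0212 and 0.0104). SRR, serine racemase, rose with shRNA 1 (0.44, limma adjusted p = 0.0470, and 0.67 by limma voom on the recovered reads) at levels of 1.46 to 2.52 FPKM, and 42.8% of its exon bases overlap other genes. CTH had values of -0.65 with shRNA 1 and 0.08 with shRNA 2 and was not called. On the recovered reads it was called with shRNA 1 (-0.94, limma voom adjusted p = 0.0352) and between the shRNAs (1.05, limma voom adjusted p = 0.0175).

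Purine synthesis consumes formyl-folate, and 8 of its 8 listed genes were tested. Of these, 2 fell and 1 rose with shRNA 2, beside 7.73% and 11.1% of all genes. PPAT, which catalyses the committed step, fell from 15.7 and 16.8 FPKM to 9.18 and 12.0 (-0.59, limma adjusted p = 0.0306). PFAS fell from 18.6 and 18.7 FPKM to 12.4 and 11.3 (-0.61, limma adjusted p = 0.0102), and PRPS1 rose from 28.19 and 27.95 to 34.4 and 34.6 (0.29, limma adjusted p = 0.0431). With shRNA 1 the list had 1 call, PRPS2, which fell, beside 10.5% of all genes that fell.

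Of 5 tested regulators, 1 rose and 1 fell with shRNA 1, beside 9.35% and 10.5% of all genes. With shRNA 2, 2 rose and 1 fell, beside 11.1% and 7.73% of all genes. ATF4, whose product activates PHGDH, PSAT1 and MTHFD2 in other settings, was at 150 and 162 FPKM in controls, 180 and 181 at 0 mM, 132 and 124 with shRNA 1 and 110 and 90.7 with shRNA 2. It fell with shRNA 2 (-0.64, limma adjusted p = 0.0111), and the value with shRNA 1 was -0.28 (limma adjusted p = 0.142). ATF4 is regulated mainly in translation, so its mRNA does not measure its activity. MYC rose with both shRNAs, from 112 and 112 FPKM to 178 and 172 with shRNA 1 and 162 and 165 with shRNA 2 (0.64 and 0.54, limma adjusted p = 0.00356 and 0.00589). KEAP1, which restrains NRF2, fell with shRNA 1 (-0.41, limma adjusted p = 0.0378).

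The genes with the profiles most like those of PHGDH, SHMT2 and MTHFD2 were found by Pearson's r of log2(FPKM + 1) over the 8 libraries, which share 4 groups, among 7119 protein-coding genes with a mean of at least 5 FPKM. For PHGDH these were STAT2 (r = 0.992), ING5 (r = 0.989) and PLK2 (r = 0.988). PLK2 was at 56.0 and 59.1 FPKM in the 20 mM controls, 63.7 and 66.0 at 0 mM, 52.1 and 50.3 with shRNA 1 and 29.8 and 33.0 with shRNA 2. Like PHGDH it was highest at 0 mM and lowest with shRNA 2. For MTHFD2 they were ATG12 (r = 0.994), BDNF (r = 0.993) and RHNO1 (r = 0.986), and ATG12 stepped down from 38.2 and 41.2 FPKM in controls to 24.5 and 27.3 with shRNA 1 and 11.8 and 13.8 with shRNA 2. For SHMT2 they were RPL35 (r = 0.991), CEP131 (r = 0.979) and PTGES2 (r = 0.975). RPL35 was at 318 FPKM in the first and 185 in the second shRNA 2 library, so the likeness to SHMT2 includes a difference within that group. These correlations are descriptions.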

How the data were processed

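The authors' deposited table gave FPKM for 58735 genes in 8 libraries of total RNA from HCT116 cells, reverse transcribed with random hexamers, per the labels' protocols. The submitters' processing notes list featureCounts 1.5.0-p3, DESeq2 1.20.0 and HISAT2 2.0.5 and state no role for any. The aligner's settings, the strand setting and the definition of library size are not given in the sources used here. Names, starts, ends and exon lengths matched GENCODE 29 (GRCh38) for all 58735 genes. Each FPKM above 0 was taken as a whole number of reads, which gave back the reads. The tolerance was 0.001 of a read step plus an allowance that grew with the read count, and 100% of values met it. The check is therefore weaker for genes with many reads. These summed to 0.932 to 1.05 times the library size the authors used, above 1 in both shRNA 2 libraries, and the part of this in the results was not tested.

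Groups were taken from the labels. log2(FPKM + 1) of the 16239 genes with at least 1 FPKM in at least 2 libraries (11446 protein-coding) was fitted with limma 3.58.1 (R 4.3.3), 4 group means, 4 residual degrees of freedom and an intensity trend. p-values were Benjamini-Hochberg adjusted over all tested genes and called under 0.05. With 2 libraries a group, the spread was estimated over all groups and moderated over genes. The 95% intervals of fold changes are not adjusted for the number of genes. Alternatives were a pseudocount of 0.1, no filter, quantile normalization, limma voom on recovered reads, a replicate block and leaving out each library, where the lone library left in a group is assumed to vary like the other groups. The fit was tested on simulated data. Intervals on single levels are exact 95% Poisson intervals.

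All 10 members are named. Of each related list, up to 3 genes with the smallest p in any comparison are named, besides genes listed by call, and for 3 members the 3 genes of most like profile. A gene of the related lists is not reported here, and its list was counted without it. The members, lists and rules were chosen with earlier results of these data known. Promoter windows are from RefSeq (GRCh38.p14).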

Additional observations from a re-analysis of the deposited data

Results flagged for a closer look

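The effects of the MAPKAPK2 shRNAs differed by the direct test of shRNA 2 against shRNA 1 in 5 members, each lower with shRNA 2. The log2 differences were -1.34 for PHGDH, -0.56 for PSAT1, -0.45 for MTHFD2, -0.45 for MTHFD1L and -0.34 for PSPH (limma adjusted p = 4.43e-04, 0.00657, 0.0182, 0.00952 and 0.0388). In all 5 genes both shRNA 2 libraries were below both 20 mM controls, and in PSAT1 and MTHFD1L both shRNA 1 libraries were above them. MAPKAPK2 mRNA was also lower with shRNA 2 than with shRNA 1, by -0.95 on the log2(FPKM + 1) scale, which understates the difference at these levels. The shRNA 2 mean, 0.891 FPKM, was 33.5% of the shRNA 1 mean, 2.66 FPKM. The part of MAPKAPK2 in these differences was not tested. Of all tested genes 22.2% differed between the shRNAs.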

How the results depend on the processing

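PHGDH and MTHFD2 with shRNA 2, and PHGDH between the shRNAs, were called in 13 of 13 alternatives, with ranges of -1.76 to -1.48, -0.84 to -0.70 and -1.59 to -1.25. Of 468 member values under alternatives 412 kept direction and call, 36 lost the call, 6 gained it and 14 changed sign, all 14 of them uncalled values near 0. Members called with shRNA 1 numbered 2, and 1 without the filter on low values, and 0 to 3 with 1 library left out, 0 without either 20 mM control or either shRNA 1 library. With shRNA 2 they numbered 4, and 2 to 5 with 1 library left out, the lowest without either 20 mM control. Between the shRNAs they numbered 5, and 1 to 4 with 1 library left out, the lowest without either shRNA 1 library. Of the related genes 12, 19 and 13 were called. Without the filter 7 were called with shRNA 1, and voom called 21 between the shRNAs. Leaving out 1 library gave 3 to 15, 3 to 14 and 6 to 11.

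Sign changed under quantile normalization in glucose for SHMT2 (0.0301) and MTHFD1 (0.0194) and between the shRNAs for SHMT1 (-0.0065). With 1 library left out, values spanned 0 in glucose for SHMT2 (-0.0608 to 0.0444), MTHFD1 (-0.148 to 0.140) and MTHFD2L (-0.0611 to 0.0304), with shRNA 1 for PSPH (-0.0116 to 0.103), with shRNA 2 for MTHFD2L (-0.278 to 0.122), and between the shRNAs for SHMT1 (-0.0738 to 0.105), SHMT2 (-0.200 to 0.0817) and MTHFD2L (-0.332 to 0.0688). The cause was not tested. With the replicate block 3, 4 and 5 members and 13, 18 and 13 related genes were called. Replicate differences of the groups correlated between -0.03 and 0.18, and the labels do not say that numbers mark a shared culture. Depth limits ALDH1L2.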
